A study of Mus musculus with 4 samples.

Results

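The genes described here are those of the interleukin-6 (IL-6) cytokine family and its main signal transducer: the ligands Il6, Lif and Clcf1, the receptor chains Il6ra, Cntfr, Il6st, Lifr and Osmr, the transcription factor gene Stat3, and Socs3, which encodes a feedback inhibitor. They were chosen by name as parts of this pathway, with earlier results of these data known. Each was found by Ensembl identifier among the 55421 genes listed per library. All 10 also passed the filter on low counts, which left 17144 genes for the test. The study cultured dissociated prefrontal cortex (PFC) cells of newborn wild-type C57BL/6 mice (postnatal day 0) for 10 days in neurobasal medium with B27, and sequenced the total RNA of the whole cultures. Cultures with FGF2 received 5 ng/mL of this fibroblast growth factor, and the others received none, so that both groups share strain, tissue, age and medium. Each group holds 2 libraries, called replicates 1 and 2 after the numbers in their labels. Outside 2 human ages, the methods describe the replicates of bulk samples as technical, in a passage that does not name the mouse libraries. The labels B1 and B2 do not say what the letter stands for. The libraries of a group may thus come from 1 culture, and a p-value then measures technical spread alone.

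Cytokines of the IL-6 family bind a ligand-specific receptor chain and then recruit the shared chain gp130, the product of Il6st, alone or with the product of Lifr or Osmr. The bound kinases of the JAK family phosphorylate STAT3, which enters the nucleus and activates its target genes, among them Socs3, whose product blocks the receptor complex again. In the brain this pathway is known for driving progenitors toward astrocytes and for the reactive state of astrocytes, where GFAP is a classical target.

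Counts on genes totalled 9166432 to 9907613 in libraries with FGF2 and 10460236 to 10799886 in those without. Levels are given as CPM, counts scaled to a common library size after correction by the TMM method of edgeR. A count of 0 allows a true level of up to 3 counts, or 0.278 to 0.327 CPM depending on the library. This limit, like the count intervals below, covers counting error only. Of the cell type markers, all 12 neuron markers and all 8 astrocyte markers were above the filter. Of 7 endothelial markers, 3 were above the filter and 1, Cldn5, was at 0 counts in every library. The marker lists moved with FGF2 as well. Summed over each list, astrocyte markers lay at 12017 to 12129 CPM with FGF2 and 7248 to 7296 without, oligodendrocyte lineage markers at 1512 to 1534 and 478 to 494, microglia and macrophage markers at 49.8 to 54.1 and 30.6 to 33.8, and neuron markers at 2951 to 3030 and 4139 to 4166. Gfap alone gave 5945 and 5641 CPM of the astrocyte sum with FGF2 and 2781 and 2770 without. Endothelial markers summed to 7.83 to 9.92 CPM with FGF2 and 4.95 to 8.50 without, and meningeal fibroblast and mural markers to 64.6 to 68.3 and 53.8 to 55.1. In bulk RNA, a change in the share of cells of a type and a change in RNA per cell cannot be told apart, and the part of cell composition in the results below was not tested.

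The cultures were compared to ask how FGF2 alters their transcription. With FGF2, 9 of the 10 genes rose and Cntfr fell, each with an adjusted p under 0.05 in the quasi-likelihood test of edgeR, adjusted by Benjamini-Hochberg over all 17144 tested genes. Of all tested genes, 20.7% passed as higher and 19.9% as lower with FGF2, or 40.5% in either direction, so passing the threshold is common in these libraries. A rise that passed the threshold and exceeded 1 on the log2 scale was less common. It was measured for 8 of the 10 genes and for 5.22% of all tested genes. The median log2 fold change was 1.33 over the 10 genes and -0.00082 over all tested genes. Both libraries with FGF2 lay above both without it for 9 of the 10 genes and below them for 1, while 33.6% of all tested genes were separated upward and 33.4% downward.

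**Figure D1:**
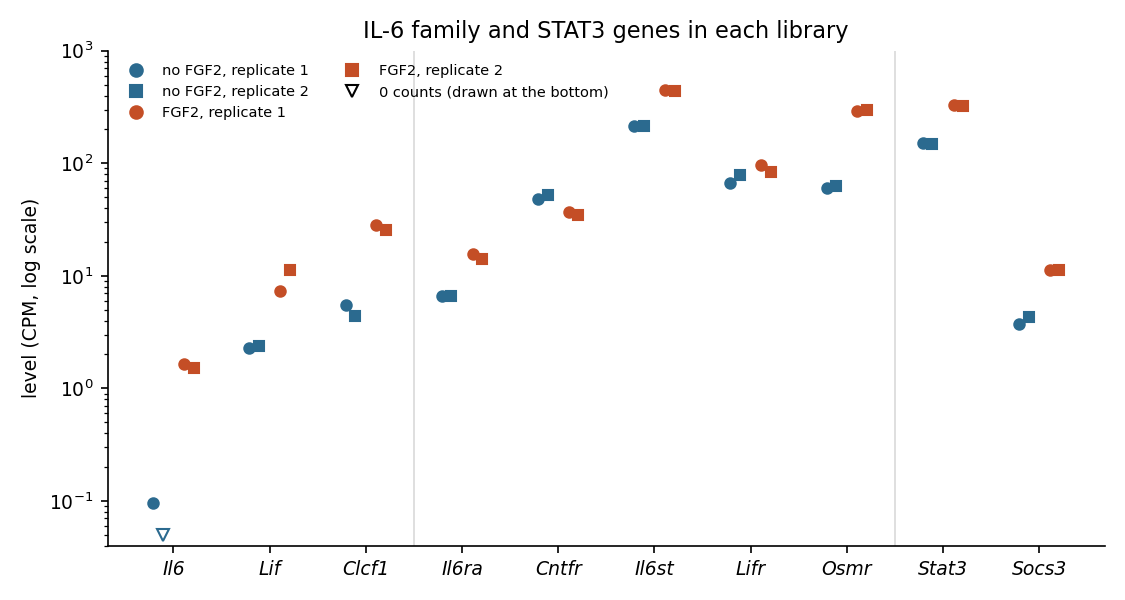
Level of each gene in each library in CPM on a log axis, with circles for replicate 1 and squares for replicate 2, grouped from left to right into ligands, receptor chains, and Stat3 with Socs3. For 9 genes both libraries with FGF2 (orange) lie above both without it (blue), Cntfr shows the opposite order, and the open triangle marks the library without FGF2 that had 0 counts of Il6.

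Among the ligands, Il6 encodes the founding cytokine of the family and lies on chromosome 5 of mm10 from 30013114 to 30019981 (plus strand). It had 15 and 15 counts in replicates 1 and 2 with FGF2, and 1 and 0 counts without FGF2. These were 1.65 and 1.53 CPM against 0.0952 and 0 CPM. The groups did not overlap, and both levels without FGF2 were under the limit of detection. The ratio of the pooled counts was 33.8 with an exact 95% binomial counting interval from 5.63 to 1381. The edgeR test gave a log2 fold change of 4.75 (standard error 0.98, edgeR adjusted p = 7.4e-06), whose size depends on the prior count of the fit. Without replicate 1 of the cultures without FGF2 it was 6.99, and without replicate 2 it was 3.89. Il6 was thus the least abundant of the 10 genes, and the size of its change is known only roughly.

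Lif encodes leukaemia inhibitory factor, a ligand of the complex of LIFR and gp130, and lies on chromosome 11 from 4257557 to 4272514 (plus strand). It had 7.27 and 11.3 CPM with FGF2 and 2.28 and 2.40 CPM without FGF2. The libraries with FGF2 differed from each other more than for most of these genes, but the lower of them was above both others. Its mean rose from 2.34 ± 0.083 to 9.28 ± 2.84 CPM (SD, n = 2), a log2 fold change of 1.99 (standard error 0.27, edgeR adjusted p = 3.9e-12). With replicate 1 of the FGF2 cultures left out the value was 2.26, and with replicate 2 left out it was 1.63.

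Clcf1 encodes cardiotrophin-like cytokine factor 1, which binds the receptor chain encoded by Cntfr, and it lies on chromosome 19 from 4214238 to 4223490 (plus strand). Its levels were 28.3 and 25.3 CPM with FGF2 and 5.52 and 4.43 CPM without FGF2. It was the most abundant of the 3 ligands in each library, also per kilobase of exon. The log2 fold change was 2.43 (standard error 0.17, edgeR adjusted p = 1.1e-43), and it stayed between 2.27 and 2.59 with each library left out in turn. A stretch of 311 exon bases of Clcf1 overlaps another gene on the same strand, AC109138.7, which had 0 counts in all libraries, and a counter sets reads in such a stretch aside as ambiguous.

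The bases upstream of the starts of Il6 and Lif are shown because both genes hold the same pair of motif matches there. The sequences are RefSeq windows of GRCm38.p6, the assembly behind mm10, written 5′ to 3′ on the gene's strand, and the capitals mark matches to AP-1 (TGANTCA) and to the NF-kappa B consensus of 10 bases. For Il6 the window is chr5:30012864-30013113, plus strand, up to the base before the start. For Lif it is chr11:4257318-4257556, plus strand, cut where the first exon of the GENCODE annotation begins.
Il6: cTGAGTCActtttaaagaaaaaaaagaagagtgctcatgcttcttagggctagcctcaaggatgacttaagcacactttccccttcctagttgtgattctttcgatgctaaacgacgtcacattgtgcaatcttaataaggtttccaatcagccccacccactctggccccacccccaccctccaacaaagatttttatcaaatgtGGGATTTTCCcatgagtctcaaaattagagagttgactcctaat
Lif: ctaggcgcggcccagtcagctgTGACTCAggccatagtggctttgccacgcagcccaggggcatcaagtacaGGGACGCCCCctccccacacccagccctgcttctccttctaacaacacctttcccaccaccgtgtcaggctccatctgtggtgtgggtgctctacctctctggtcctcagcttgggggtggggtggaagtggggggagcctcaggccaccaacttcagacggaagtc
In Il6 the AP-1 match TGAGTCA lay at positions -249 to -243 from the RefSeq start and the kappa B match GGGATTTTCC at -44 to -35. In Lif the AP-1 match TGACTCA lay at -228 to -222 and the kappa B match GGGACGCCCC at -178 to -169. The search covered 4 motifs on both strands in the 250 bases upstream of each start, and the matches did not overlap each other. Of 32851 such windows in the genome, 6.75% held an AP-1 match and 7.25% a kappa B match. Windows were found for 9 of the 10 genes, and Clcf1 had none. Among these 9 genes, AP-1 was matched in Il6 and Lif alone, kappa B in these and in 1 of the 6 windows of Cntfr, and the cyclic AMP response element (TGACGTCA, 1.55% of windows) in none. The letters CGACGTCA in the Il6 window differ from the cyclic AMP response element in their first base and were not counted. A match describes the letters and does not show that a factor bound there.

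The receptor chains changed unequally. Osmr, the chain that pairs with gp130 to bind oncostatin M, lies on chromosome 15 from 6813577 to 6874969 (minus strand) and changed most of the 5 receptor genes. It had 292 and 299 CPM with FGF2 and 60.2 and 63.3 CPM without FGF2. The groups were far apart against a spread of 5.02 CPM with FGF2 and 2.21 without (SD, n = 2). The log2 fold change was 2.26 (standard error 0.06), with an edgeR adjusted p too small to be stored as a number and a DESeq2 adjusted p of 9.4e-193. It stayed between 2.22 and 2.29 with each library left out.

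Il6st, which encodes the shared chain gp130, lies on chromosome 13 from 112464070 to 112510086 (plus strand). It had 445 and 440 CPM with FGF2 and 212 and 214 CPM without FGF2, the highest levels of the family in CPM. The libraries of each group lay close together, and the log2 fold change was 1.05 (standard error 0.04, edgeR adjusted p = 6.3e-131) with a range of 1.04 to 1.06 when 1 library was left out. Il6ra, the specific chain for IL-6, lies on chromosome 3 from 89864059 to 89913196 (minus strand) and had 15.5 and 14.1 CPM with FGF2 against 6.66 and 6.56 without. Its log2 fold change was 1.16 (standard error 0.19, edgeR adjusted p = 7.4e-09), close to that of Il6st. Both chains of the IL-6 receptor were thus higher by similar amounts. The ratio of Il6st to Il6ra per kilobase of exon was 22.3 and 24.2 with FGF2 and 24.8 and 25.4 without.

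Lifr encodes the chain that binds LIF and pairs with gp130, and it lies on chromosome 15 from 7090614 to 7197489 (plus strand). It had 96.4 and 84.2 CPM with FGF2 and 66.5 and 78.7 CPM without FGF2. The groups were separated by less than the distance between the libraries within either group. The log2 fold change was 0.31 (standard error 0.07, edgeR adjusted p = 8.8e-05), but when no FGF2 replicate 1 was left out it was 0.19 and did not pass (edgeR adjusted p = 0.113). It was the smallest change among the 10 genes, and the call rests on that library.

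Cntfr encodes the specific chain for ciliary neurotrophic factor and CLCF1, which is held in the membrane by a lipid anchor, and lies on chromosome 4 from 41657498 to 41697089 (minus strand). It was the gene that fell. It had 37.0 and 34.98 CPM with FGF2 and 48.0 and 52.1 CPM without FGF2, with no overlap. Cntfr fell by 0.48 on the log2 scale (standard error 0.10, edgeR adjusted p = 4.4e-06), and the value stayed between -0.54 and -0.42 with a library left out. Clcf1 and its receptor chain thus moved in opposite directions, while Lif and Il6 moved in the same direction as their chains Lifr and Il6ra. Neuron markers, whose summed level was also lower with FGF2, fell in 8 of 12 cases with a median of -0.47, beside 19.9% of all tested genes. Their part in the fall of Cntfr was not tested.

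**Figure D2:**
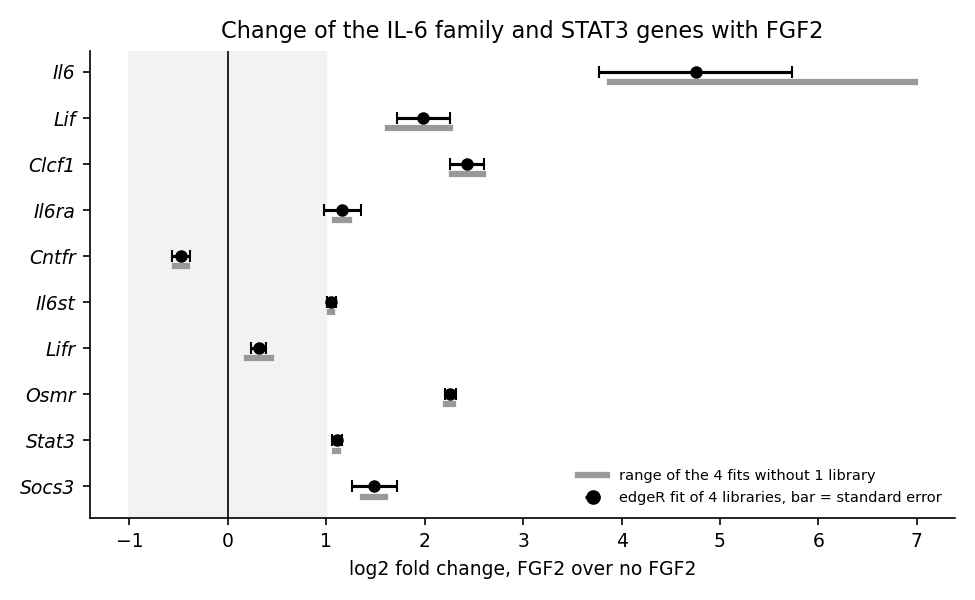
Log2 fold change of each gene, FGF2 over no FGF2, from the edgeR fit of the 4 libraries (points, bars give the standard error), with grey lines for the range of the 4 fits that each left out 1 library and a pale band between -1 and 1. Cntfr and Lifr lie within the band, the other 8 genes lie above 1, and Il6 has the widest range, from 3.89 to 6.99.

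The receptor chains were also compared as a mixture. Levels of different genes are comparable only per length, so CPM were divided by the kilobases of exon of each gene. Summed over the 5 chains this level was 88.2 and 86.3 CPM per kilobase with FGF2 and 48.3 and 51.3 without. The share of Osmr in this sum was 27.3% and 28.6% with FGF2 and 10.3% and 10.2% without, a difference of 17.7 percentage points between the group means. The share of Cntfr was 15.1% and 14.6% with FGF2 and 35.7% and 36.5% without, a difference of -21.3 points. Il6st held 45.4% and 45.9% with FGF2 and 39.6% and 37.6% without. Lifr held 10.1% and 9.05% with FGF2 and 12.8% and 14.2% without, and Il6ra stayed between 1.48% and 2.04% in all libraries. For each of the 5 chains the libraries of both groups were separated, with an exact permutation p = 0.333 (two-sided), also after Benjamini-Hochberg adjustment over the 5 chains, which is the smallest that 2 libraries against 2 allow. The direction for Il6st turns with the scale, since without division by length its share was 2.48 percentage points lower with FGF2. The ratio of Osmr to Lifr per kilobase turned over, from 0.804 and 0.715 without FGF2 to 2.69 and 3.16 with FGF2.

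**Figure D3:**
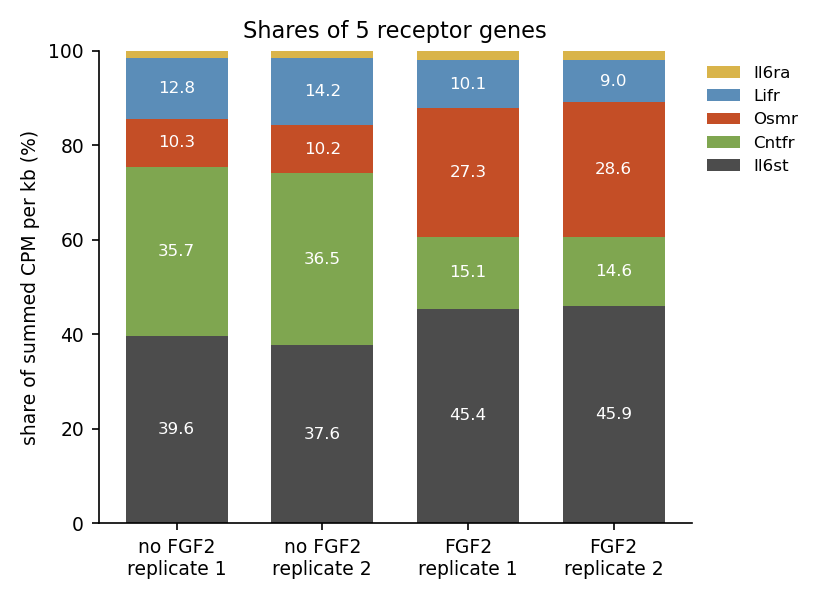
Stacked bars give the share of each of 5 receptor genes in their summed level (CPM per kilobase of exon, in percent) for each library. Osmr takes 10.2% to 10.3% without FGF2 and 27.3% to 28.6% with FGF2, and Cntfr takes 35.7% to 36.5% and 14.6% to 15.1%.

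Stat3, the transcription factor downstream of gp130, lies on chromosome 11 from 100885098 to 100939540 (minus strand). It had 328 and 323 CPM with FGF2 and 152 and 150 CPM without FGF2. The level thus more than doubled with little spread, and the log2 fold change was 1.11 (standard error 0.05, edgeR adjusted p = 4.2e-118) with a range of 1.09 to 1.12 when 1 library was left out. It shares 72 exon bases with Stat5a on the opposite strand, and Stat5a had between 12 and 36 counts per library against 1601 to 3178 for Stat3.

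Socs3, the feedback inhibitor that binds gp130 and JAK kinases, lies on chromosome 11 from 117966079 to 117970047 (minus strand). It had 11.4 and 11.3 CPM with FGF2 and 3.71 and 4.34 CPM without FGF2. The libraries with FGF2 were nearly identical and well above the others, and the log2 fold change was 1.49 (standard error 0.23, edgeR adjusted p = 7.1e-10). It ranged from 1.38 to 1.60 when 1 library was left out. The ratio of Stat3 to Socs3 per kilobase was 8.76 and 8.69 with FGF2 and 12.5 and 10.5 without, lower in both libraries with FGF2, and the difference was not tested further. The stretch upstream of a RefSeq start of Socs3 is shown because it holds the one match to the STAT motif (TTCNNNGAA, capitals) found among the windows of these genes.
Socs3: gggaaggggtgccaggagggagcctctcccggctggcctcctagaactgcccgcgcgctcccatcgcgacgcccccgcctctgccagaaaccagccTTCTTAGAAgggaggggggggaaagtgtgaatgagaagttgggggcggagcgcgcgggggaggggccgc
This is chr11:117969452-117969616 of GRCm38.p6 on the minus strand, written 5′ to 3′, and the match TTCTTAGAA lay at positions -154 to -146 from the RefSeq start. The window was cut where an exon of a GENCODE transcript of Socs3 begins, and the start used by RefSeq lies 180 bases upstream of the coding transcript start in GENCODE, so the 180 bases between these starts were not searched. A STAT match stood in 7.02% of all windows. None of the windows of the other genes held one, which says only that these letters are not in these 250 bases. For Osmr the window lay inside an exon of the GENCODE annotation, whose coding start is 656 bases away, and it is not shown.

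In the order of levels per kilobase, Il6st was first in both groups, at 39.8 with FGF2 and 19.2 without (CPM per kilobase, means of 2 libraries). With FGF2 it was followed by Stat3 (34.2), Osmr (24.4), Cntfr (12.9), Lifr (8.38), Clcf1 (7.05), Socs3 (3.92), Lif (2.13), Il6ra (1.72) and Il6 (0.654). Only Lif and Il6ra overlapped among the neighbours of this order. Without FGF2 the order after Il6st was Cntfr (18.0), Stat3 (15.8), Lifr (6.74), Osmr (5.09), Socs3 (1.39), Clcf1 (1.31), Il6ra (0.765), Lif (0.539) and Il6 (0.0196). Here Socs3 and Clcf1 overlapped. Cntfr thus stood at place 2 without FGF2 and at place 4 with it, while Osmr stood at place 5 and place 3.

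The other genes of the pathway were taken from lists of textbook members, chosen with earlier results of these data known. The calls in each list below, also those of cell type markers, stand beside shares over all tested genes. Of these, 20.7% passed as higher and 19.9% as lower. Of 12 further ligands and receptors of the family, 4 had enough counts to be tested. Osm, which encodes the ligand of OSMR, as well as Il27 and Il31 were at 0 counts in every library, and Il11, Cntf and Ctf2 had at most 3 counts in any library. Oncostatin M transcripts were thus not detectable at this depth, although Osmr was among the genes of the family with the highest levels. Il11ra1, the chain for IL-11, had 26.3 and 30.8 CPM with FGF2 and 22.8 and 19.2 without, a log2 fold change of 0.45 (standard error 0.12, edgeR adjusted p = 0.0012). Ctf1, the ligand cardiotrophin-1, had 24 and 32 counts with FGF2 against 15 and 8, and its log2 fold change was 1.44 (edgeR adjusted p = 0.0054). Il31ra, a relative of gp130, fell by 1.73 on the log2 scale on 4 to 23 counts per library (edgeR adjusted p = 0.013). None of the 3 calls held with DESeq2 (adjusted p = 0.053 for Il11ra1, 0.074 for Ctf1 and 0.12 for Il31ra). When either replicate 2 was left out, with FGF2 or without, 0 of this list passed in either direction, and when FGF2 replicate 1 was left out 0 passed as lower.

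Of 10 further STAT and JAK kinase genes, 9 were tested and 7 rose, with a median log2 fold change of 0.39. Stat6, the STAT of IL-4 signalling, had 9.81 and 10.3 CPM with FGF2 and 3.997 and 3.42 without (log2 fold change 1.44, standard error 0.24, edgeR adjusted p = 1.8e-08). Stat2, which acts in interferon signalling, had 62.2 and 58.2 CPM with FGF2 and 39.4 and 45.8 without (log2 fold change 0.50, edgeR adjusted p = 1.5e-07). Jak1, Jak2 and Tyk2 encode the kinases that serve gp130. Jak1 was at 204 and 195 CPM with FGF2 and 210 and 214 without and did not pass (log2 fold change -0.09, edgeR adjusted p = 0.14), Jak2 was at 0.18 (edgeR adjusted p = 0.014) and Tyk2 at 0.38 (edgeR adjusted p = 0.0014). Stat5a and Jak3 passed at 1.13 and 0.55 (edgeR adjusted p = 0.025 and 0.035). The count of 7 was 3 when FGF2 replicate 2 was left out. It was 4 and 2 when no FGF2 replicates 1 and 2 were left out, and Stat2 and Stat6 passed in each of these fits. Jak3 passed in none of the 4 fits that left out a library, and Stat5a failed without either replicate 2 (edgeR adjusted p = 0.338 and 0.214). With DESeq2, Stat2, Stat6 and Tyk2 passed, while Jak2, Stat5a and Jak3 did not (DESeq2 adjusted p = 0.114, 0.163 and 0.201).

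Of 17 inhibitors and adaptors of the pathway, 16 were tested. 7 rose and 3 fell, with a median of 0.16. The relatives of Socs3 moved in both directions. Socs2, Socs5 and Socs7 fell by 0.49, 0.39 and 0.39 on the log2 scale (edgeR adjusted p = 4.7e-05, 3.9e-04 and 5.1e-09), while Socs4 and Socs6 rose by 0.29 and 0.33 (edgeR adjusted p = 0.0086 and 0.021). Socs1, the closest relative of Socs3 in function, had 3 and 4 counts with FGF2 against 9 and 1, too few for the test. Gab1, an adaptor that couples gp130 and growth factor receptors to the ERK pathway, had 185 and 198 CPM with FGF2 and 121 and 122 without (log2 fold change 0.66, standard error 0.06, edgeR adjusted p = 3.5e-31). The phosphatase genes Ptpn6, Ptpn2 and Ptpn11 were at 1.01, 0.49 and 0.15 (edgeR adjusted p = 0.026, 6.2e-05 and 0.013). The count of 7 was 4, 4, 3 and 4 with FGF2 replicate 1, FGF2 replicate 2, and replicates 1 and 2 without FGF2 left out. Gab1 and Ptpn2 passed in each of these fits, and Ptpn6 in none. With DESeq2, Gab1 and Ptpn2 were the genes of the list that passed as higher, and Ptpn6, Ptpn11 and Socs6 did not pass (DESeq2 adjusted p = 0.149, 0.124 and 0.167).

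Among 30 genes known as targets of STAT3, 29 were tested, 22 rose and 2 fell, and the median log2 fold change was 1.20. Many of these genes also answer to other factors, NF-kappa B and AP-1 among them, so the list is not specific to STAT3. The largest rises were those of Bcl3, an atypical NF-kappa B inhibitor, Lcn2, the acute-phase protein lipocalin-2, Steap4, a metalloreductase, and Cebpd, a transcription factor of the acute-phase response. Bcl3 had 116 and 90 counts with FGF2 against 0 and 2, a ratio of 116 with an exact 95% counting interval from 31.8 to 966. Lcn2 had 464 and 436 CPM with FGF2 and 12.3 and 15.0 without (log2 fold change 5.04), Steap4 had 322 and 301 against 17.3 and 16.2 (4.22), and Cebpd had 41.3 and 40.6 against 4.47 and 3.79 (3.31). At the other end, Birc5, an apoptosis inhibitor of dividing cells, and Ccnd1, encoding cyclin D1, fell by 0.55 and 0.28 on the log2 scale (edgeR adjusted p = 0.037 and 0.0024). Mcl1 and Vegfa, a survival factor and a vascular growth factor, were at 0.19 and 0.27 (edgeR adjusted p = 0.0032 and 0.0093). None of these 4 calls held with DESeq2 (adjusted p = 0.231 for Birc5, 0.054 for Ccnd1, 0.053 for Mcl1 and 0.099 for Vegfa) or without FGF2 replicate 2 (edgeR adjusted p = 0.126, 0.057, 0.051 and 0.057). Birc5, Ccnd1 and Vegfa also failed when no FGF2 replicate 1 was left out (edgeR adjusted p = 0.522, 0.065 and 0.056), Mcl1 and Vegfa when no FGF2 replicate 2 was (0.101 and 0.087), and Birc5 when FGF2 replicate 1 was (0.072). The 2 falls became 1, 1 and 0 without FGF2 replicate 1, FGF2 replicate 2 and replicate 1 without FGF2. Gfap stands in both this list and the astrocyte list. Its log2 fold change of 1.06 was the highest of the 8 astrocyte markers, of which 7 rose with a median of 0.45, and 7 of the 10 genes of the family lay above it.

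Of 8 receptor genes of other families that also signal through STAT3, 4 were tested, with a median of 0.26. Beside a similar share of 20.7% of all tested genes, 1 of the 4 rose. This was Il10rb, a shared chain of the IL-10 family, which had 45 and 44 counts with FGF2 against 9 and 26 (log2 fold change 1.52, edgeR adjusted p = 1.4e-04). The difference between its libraries without FGF2 carried over to the result, which was 0.96 and did not pass without the first of them (edgeR adjusted p = 0.068). Without that library 0 genes of this list passed, and without the second of them 2 passed. Lepr, Egfr and Ghr did not pass, at 0.48, -0.04 and 0.03 (edgeR adjusted p = 0.50, 0.58 and 0.89).

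All 14 genes of the list of regulators of Il6 transcription and mRNA decay rose, with a median of 1.85. With DESeq2, 13 of the 14 passed as higher. Cebpb stands in this list and in the list of STAT3 targets. Tnf and Il1b, cytokines that induce Il6, had 59 and 56 and 12 and 12 counts with FGF2, and 2 and 2 and 0 and 2 counts without. The ratio was 32.4 for Tnf (exact 95% counting interval from 12.3 to 121) and 13.5 for Il1b (3.36 to 118). For Il1b the log2 fold change of 3.60 was 2.70 when no FGF2 replicate 1 was left out, and it did not pass (edgeR adjusted p = 0.068). Nfkbiz, a nuclear cofactor needed for Il6 induction, had 107 and 104 CPM with FGF2 and 12.7 and 15.0 without (log2 fold change 2.93, standard error 0.10, edgeR adjusted p = 2.5e-193). Zfp36, whose product destabilises cytokine mRNAs, rose by 2.85 as well, so that inducers and decay factors of Il6 were higher together. The smallest rises were those of Il1r1 (0.50), Arid5a (0.79), Rela (0.97) and Rel (0.99). Without replicate 1 of the cultures without FGF2, Il1r1 and Rel were at 0.35 and 0.63 and did not pass (edgeR adjusted p = 0.063 and 0.0503).

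**Figure D4:**
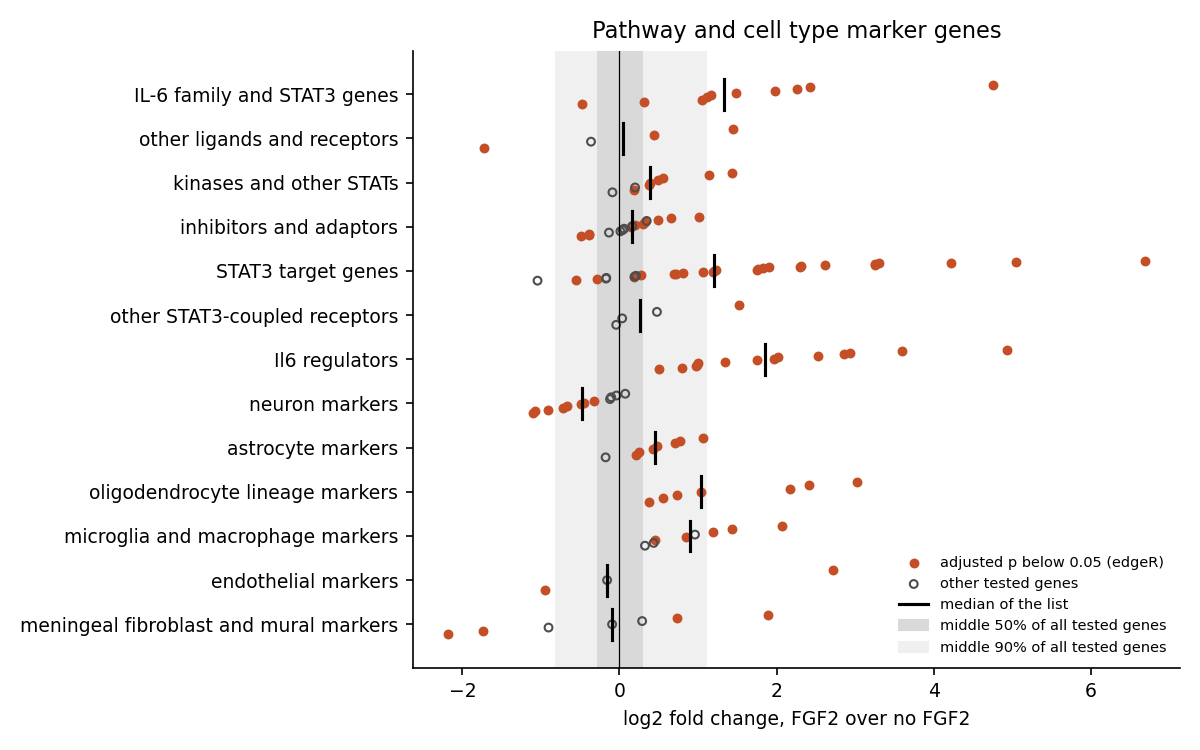
Log2 fold change of each tested gene, FGF2 over no FGF2, by list, with filled points for genes past an adjusted p of 0.05, open points for the others, black bars for the median of each list and grey bands for the middle 50% and 90% of all tested genes. The medians of the IL-6 family and STAT3 genes (1.33), the STAT3 target genes (1.20) and the Il6 regulators (1.85) lie beyond the band of the middle 90%, which ends at 1.10, while those of the kinases (0.39) and inhibitors (0.16) lie near or within the middle 50%.

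Microglia are a known source of Il6, Tnf and Il1b. Of 12 microglia and macrophage markers, 8 were tested and 5 rose, with a median of 0.90, and the largest log2 fold change was 2.07 for Ptprc on 3 to 28 counts per library. The homeostatic markers P2ry12, Tmem119 and Aif1 had at most 7 counts in any library. Of the oligodendrocyte lineage markers 7 of 7 tested rose with a median of 1.04. Endothelial markers were tested for 3 of 7 genes, with 1 higher and 1 lower, and meningeal fibroblast and mural markers for 7 of 8, with 2 higher and 2 lower. The part of any of these cells in the changes of the IL-6 family was not tested.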

How the data were processed

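RNA of 4 mouse culture libraries, 2 with and 2 without FGF2, was analysed. Per the labels and the methods of the paper, the authors mapped clean reads to mm10 with HISAT2 2.1.0, kept alignments with a mapping quality of at least 20 and counted reads per gene with HTSeq 0.11.2. The deposited values are raw counts, without normalization or pooling. Which annotation was counted, and whether strand was used, is not given in the sources used here. In each file 5 tallies name no gene and were left out: reads in no feature made up 43.2% to 45.9% and ambiguous reads 1.47% to 1.76%.

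Identifiers were matched to GENCODE M21 (55240 of 55421), which gave symbols, mm10 coordinates and exon lengths. Counts were tested with the quasi-likelihood test of edgeR 4.0.16 (R 4.3.3, TMM, filter by expression, robust estimation, Benjamini-Hochberg adjustment over 17144 genes). Standard errors were derived from the F statistic. Alternatives were RLE and total count scaling, no filter, at least 10 counts in every library, DESeq2 1.42.0, limma-voom (limma 3.58.1), a replicate block, a threshold of 0.01 and each library left out. A fit with 1 library in a group assumes that it varies like the other group. Replicates differed by more than sampling noise (chi-square per degree of freedom 2.28 with FGF2 and 1.76 without) and were kept apart. The fits were tested on simulated data with known changes.

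The genes, lists and tests were chosen with earlier results of these data known. From each list the text names the 4 highest and 4 lowest log2 fold changes past the threshold, apart from a result not reported here. Jak1, Gfap, Ptprc, Socs1, Socs4, Lepr, Egfr, Ghr, P2ry12, Tmem119, Aif1, Csf1r, Cx3cr1 and the untested ligands were named after their values were seen.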

Additional observations from a re-analysis of the deposited data

How the results depend on the processing

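All 10 genes of the family kept their direction under every alternative that gave a value, and 9 of 10 also kept their side of the threshold. Lifr was the exception, without 1 library. With DESeq2 all of them passed, with the highest adjusted p for Lifr (0.023), and Il6 had no value where every library had to hold at least 10 counts. Of 35 other named genes 16 kept their side of the threshold throughout and 0 changed sign.

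With DESeq2, 2313 genes in all were higher and 2143 lower with FGF2, in place of 3541 and 3408. In the same test 0 further ligands and receptors were higher and 0 lower, 3 kinases and STATs and 2 inhibitors and adaptors were higher, and 0 STAT3 targets were lower. STAT3 targets that were lower numbered 1 without the filter, 1 with limma-voom and 1 at a threshold of 0.01. At that threshold 3 kinases and STATs and 3 inhibitors were higher and 0 further ligands and receptors lower. A minimum of 10 counts per library left 1 further ligand or receptor higher and 0 lower, and 0 other STAT3-coupled receptors higher, since fewer genes were tested. The share of Il6st among receptors was 2.48 percentage points lower with FGF2 (-2.48) on plain counts, in place of 7.03 higher, since long genes then weigh more.

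When libraries were left out 1 at a time, the number of genes that passed ranged from 2642 to 3145 (higher) and 2558 to 3054 (lower) over all genes, from 8 to 9 for the family (higher), from 0 to 2 (higher) and 0 to 1 (lower) for further ligands and receptors, from 2 to 6 for kinases and STATs, from 3 to 4 for inhibitors and adaptors, from 19 to 21 (higher) and 0 to 2 (lower) for STAT3 targets, from 0 to 2 for other STAT3-coupled receptors and from 10 to 13 for Il6 regulators. The numbers 1 and 2 of the replicates gave no sign of pairing, as deviations of same-numbered libraries correlated at 0.0077. With the number as a replicate block the family still had 9 genes higher and 1 lower, and over all genes 3476 were higher and 3338 lower. The block changed no call of these 10 genes. Depth limits the value of Il6, which rests on 30 counts with FGF2 and 1 without.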
